A study of Mus musculus with 49 samples.

Results

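Kidneys taken 4 h after bilateral ischemia reperfusion injury (IRI4h, n = 3 mice) were set against kidneys taken 4 h after sham surgery (SHAM4h, n = 3 mice). The libraries were chosen by their labels, not by any measured value, and are 6 of the 49 in the series. Of the 43309 genes in the deposited table, 14895 had 1 FPKM or more in at least 3 of the 49 libraries and were tested. FPKM is the number of fragments per kilobase of transcript in a library scaled to a fixed total, a level that is corrected for transcript length and library depth. Changes were computed on log2(FPKM + 0.1) and given as IRI4h minus SHAM4h with their standard error (SE), so that a change of 1 is close to a doubling for all but low genes. A gene was called when its limma p-value, adjusted by the Benjamini-Hochberg method over all 14895 genes, was under 0.05.

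The series followed whole mouse kidneys over time after ischemia by RNA-seq. All mice were C57BL/6NCrl, the operated mice were males 10 to 12 weeks old, and none carried a transgene. For the IRI4h group the pedicles of the left and right kidney were closed with clamps for 21 min, and kidneys were taken 4 h later. The SHAM4h group was collected 4 h after sham surgery. Kidneys 2 h after the injury (IRI2h, n = 3) are used below as the nearest time, and sham kidneys at 24 h (SHAM24h, n = 3) and unoperated kidneys of 3-month-old mice (NORM3m, n = 3) show where the SHAM4h level itself stood. Replicates were separate mice, and the p-values measure the spread between such kidneys. With 3 kidneys against 3, an exact permutation test of a single gene cannot go below p = 0.10, so the adjusted p-values rest on the spread that limma shared among all 49 libraries.

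Clamping the renal artery starves tubule cells of oxygen and ATP, and the return of blood adds oxidative and protein-folding stress. Cells answer first with immediate early genes, transcription factors that existing kinases and SRF switch on without new protein. Their products then drive a second wave of cytokines, chemokines, growth factors and structural genes, while the proximal tubule, which lives on fatty acid oxidation and makes glucose, is the segment most easily harmed. In whole kidneys, fewer cells of a type and less RNA per cell cannot be told apart.

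The IRI4h libraries were somewhat shallower than the SHAM4h libraries, and 1 kidney of each group stood apart. Low FPKM values were whole multiples of 1 read, which gave 37880555 to 42361414 reads in the IRI4h libraries and 43225816 to 49003175 in the SHAM4h libraries, with 21540 to 22282 and 20821 to 21390 genes above 0. IRI4h kidney 1 was the highest of its group for cytokines, neutrophil genes, metallothioneins and injury markers and the lowest for many immediate early genes. SHAM4h kidney 3 had high levels of immune genes (Cd74, the MHC class II invariant chain, at 83.98, 81.4 and 1236 FPKM in the SHAM4h kidneys, against 144, 104 and 153 FPKM in the IRI4h kidneys) and of fat genes (Cfd, the adipocyte protease adipsin, at 0.0249, 0.0953 and 35.5 FPKM in the SHAM4h kidneys). Results that rest on either kidney are given below with and without it. Neutrophil markers summed to 25.3 to 129 FPKM in the IRI4h kidneys, against 6.63 to 38.4 FPKM in the SHAM4h kidneys, with 2 of 8 tested called higher (Il1r2, Csf3r), 1 of 8 without IRI4h kidney 1, SHAM4h kidney 1 or SHAM4h kidney 3, and with Mpo at 0 in all 6 and Elane at 0 in all but IRI4h kidney 3. The sums for macrophage markers were 150 to 293 and 134 to 1380 FPKM in the IRI4h and SHAM4h kidneys (1 of 14 higher, Cd68, but none higher and 1 lower without IRI4h kidney 1), for lymphocyte markers 2.10 to 2.87 and 1.41 to 5.65 FPKM (0 of 10), for red cell markers 154 to 294 and 59.2 to 102 FPKM (0 of 6), and for fat markers 1.38 to 5.07 and 0.974 to 69.0 FPKM (0 of 8). Adrenal (0 of 1), skeletal muscle (0 of 2) and urothelium (1 of 6, Krt5, none without IRI4h kidney 1 or 2 or SHAM4h kidney 2, and 2 without SHAM4h kidney 3) markers summed to at most 10.0 FPKM in any kidney. Podocyte markers summed to 107 to 116 and 85.0 to 106 FPKM (3 of 7 higher, 1 of 7 without SHAM4h kidney 3, and 1 lower without SHAM4h kidney 1), and stromal markers to 162 to 235 and 144 to 231 FPKM (1 of 11 higher, Col1a1). What part such shifts have in the results below was not tested.

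Of the 14895 genes, 2641 (17.7%) were higher and 1568 (10.5%) lower in the IRI4h than in the SHAM4h kidneys, and 10686 were not called. These shares are the background for every list count against SHAM4h kidneys in this text. The rises were also the larger changes: 951 called genes rose and 318 fell by 1 or more on the log2 scale, 110 rose and 6 fell by 3 or more, and 12 rose by 5 or more, a size that no fall reached. With the thresholds of the study (at least a 4-fold change and a mean above 1 FPKM in either group), 262 genes (1.76%) were higher and 37 (0.248%) lower. The 3 kidneys of each group did not overlap for 3919 genes (26.3%) with all IRI4h kidneys above and for 3105 (20.8%) with all IRI4h kidneys below. Genes called higher held 70648 to 79540 summed FPKM in the IRI4h kidneys, against 37262 to 38533 in the SHAM4h kidneys, and genes called lower held 42575 to 47481, against 81953 to 95670. The median of all 14895 changes was 0.03, and quantile normalization, which moved it to −0.07, gave 1958 higher and 2364 lower, so the share of calls that were higher was 62.7% without it and 45.3% with it. The count of falls was 1025 without SHAM4h kidney 3 and 1046 without SHAM4h kidney 2, and that of rises was 1944 to 2444 over the 6 fits without 1 kidney.

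**Figure D1:**
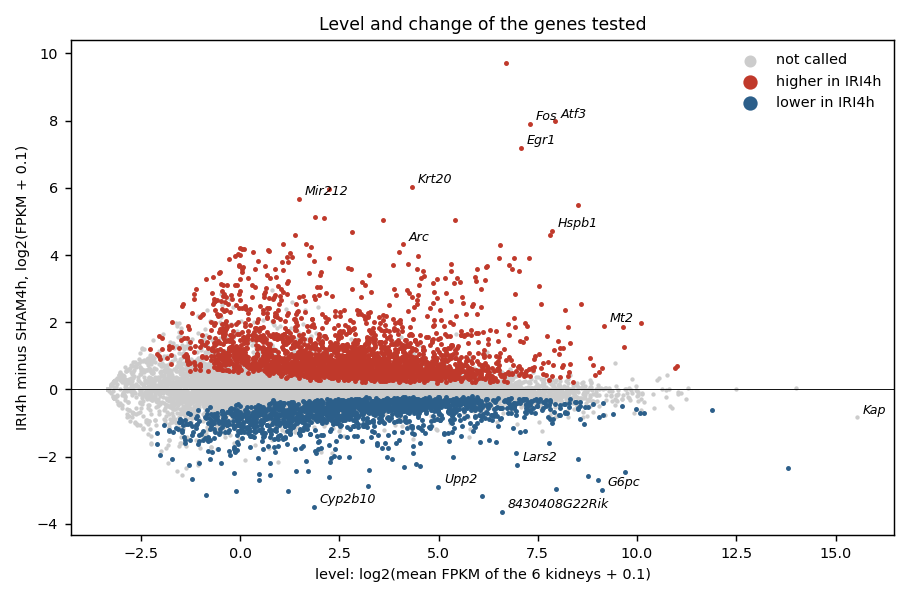
Change of each of the 14895 tested genes at 4 h (y axis, IRI4h minus SHAM4h, log2(FPKM + 0.1)) against its mean level over the 6 libraries (x axis, log2 scale), with the 2641 genes called higher and the 1568 called lower in colour. The rises reach 9.72 for Fosb, while the lowest point, 8430408G22Rik, is at −3.65.

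The immediate early transcription factors were the gene group with the largest changes. All 24 of the 24 tested members rose (background 17.7%), with a median change of 3.61 beside 0.03 for all genes, and the summed level of the list was 2470 to 3940 FPKM in the IRI4h kidneys, against 210 to 227 FPKM in the SHAM4h kidneys. Egr4 was below the filter. Fosb, a partner of Jun in the AP-1 transcription factor (chr7:19302696-19310051, minus strand in mm10), was at 134, 224 and 264 FPKM in the IRI4h kidneys, against 0.213, 0.0934 and 0.119 FPKM in the SHAM4h kidneys. It had the largest change of all genes tested, and every SHAM4h kidney was near 0 (log2 change 9.72 ± 0.54, adjusted p = 8.8e-16). Atf3, a stress-induced partner of AP-1 (chr1:191170296-191218039, minus strand), was at 364, 598 and 502 FPKM in the IRI4h kidneys, against 2.35, 1.51 and 1.62 FPKM in the SHAM4h kidneys (log2 change 7.98 ± 0.48, adjusted p = 3e-15). Fos, its best known member (chr12:85473890-85477273, plus strand), was at 221, 389 and 334 FPKM in the IRI4h kidneys, against 2.28, 1.07 and 0.637 FPKM in the SHAM4h kidneys (log2 change 7.91 ± 0.79, adjusted p = 8.4e-10). For Fos, Fosb, Atf3 and Jun alike, IRI4h kidney 1 was the lowest of the injured kidneys and still far above every sham kidney. Jun, the AP-1 subunit that binds DNA with Fos, was at 229, 659.9 and 403 FPKM in the IRI4h kidneys, against 14.8, 17.2 and 16.3 FPKM in the SHAM4h kidneys (log2 change 4.61 ± 0.30, adjusted p = 1.6e-14).

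The AP-1 subunits differed among themselves in when they were high. Fosl1, also called Fra-1, was at 39.5, 18.2 and 13.1 FPKM in the IRI4h kidneys, against 0.537, 0.848 and 0.358 FPKM in the SHAM4h kidneys (log2 change 5.03 ± 0.51, adjusted p = 1.4e-09). IRI4h kidney 1 had the most of it, the reverse of Fos, and the IRI2h kidneys had 3.13, 1.19 and 4.86 FPKM. Junb (3.60), Jund (3.09) and Fosl2 (1.63) rose too. Jund, usually the steady AP-1 subunit, was at 303, 372 and 313 FPKM in the IRI4h kidneys, against 44.9, 33.8 and 37.4 FPKM in the SHAM4h kidneys, with no overlap. Egr1, a zinc-finger factor of growth signalling (chr18:34859823-34864984, plus strand), was at 136, 360.2 and 303 FPKM in the IRI4h kidneys, against 3.996, 0.981 and 0.975 FPKM in the SHAM4h kidneys (log2 change 7.19 ± 0.84, adjusted p = 2.8e-08), and Egr2 (4.33) and Egr3 (3.63), which the sham kidneys hardly expressed, rose too. The nuclear orphan receptors Nr4a1 (3.52), Nr4a2 (2.74) and Nr4a3 (3.79) rose, with IRI4h kidney 1 again the lowest of the injured kidneys. Myc, which drives growth and ribosome production, was nearly even over the injured kidneys, with 41.7, 40.9 and 39.3 FPKM in the IRI4h kidneys, against 3.67, 4.75 and 5.64 FPKM in the SHAM4h kidneys (log2 change 3.11 ± 0.39, adjusted p = 8.9e-08). The small changes of the list belonged to Srf, the factor that switches many of these genes on, with 21.6, 22.3 and 29.6 FPKM in the IRI4h kidneys, against 8.34, 9.82 and 10.8 FPKM in the SHAM4h kidneys (log2 change 1.33 ± 0.17, adjusted p = 1.8e-07), and to the mRNA-decay factor Zfp36l1 (1.55).

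**Figure D2:**
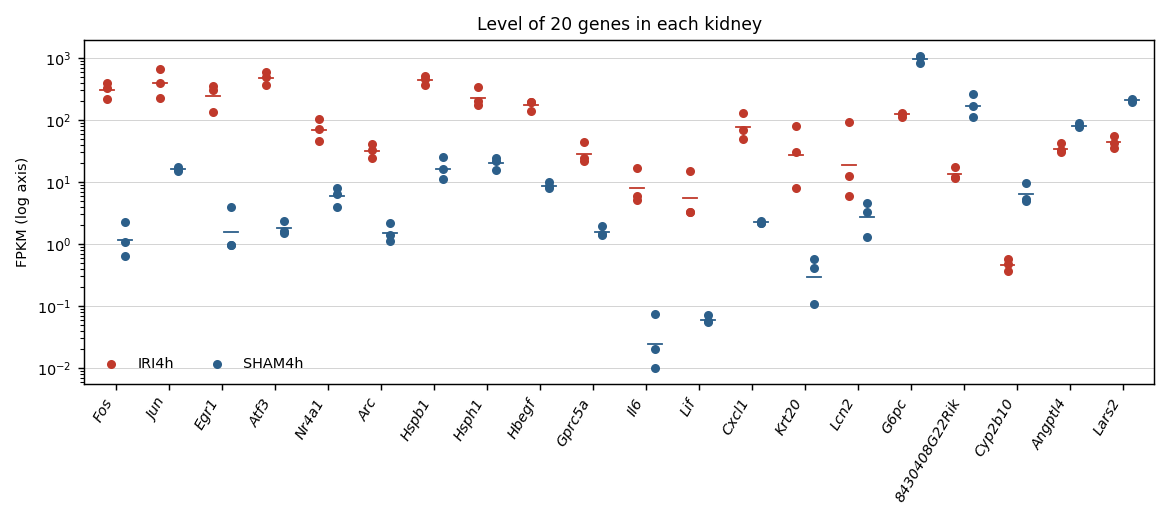
FPKM of leading genes in the 3 IRI4h and the 3 SHAM4h kidneys, 1 point per kidney on a log axis, IRI4h left of SHAM4h, with lines at the geometric means and the 1 value of 0 (Il6 in SHAM4h kidney 1) drawn at 0.01 FPKM. Egr1 lies between 136 and 360.2 FPKM in the IRI4h kidneys, against 0.975 to 4.00 FPKM in the SHAM4h kidneys, and G6pc shows the reverse order.

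Immediate early promoters often carry a cyclic AMP response element, TGACGTCA, a site for CREB and ATF factors. The 250 bases before the start of 27025 genes (RefSeq, GRCm38.p6) were searched on both strands, and 478 genes (1.77%) held it. In the immediate early list 2 of the 20 members with a promoter entry held it (Btg2, Maff), and in the list of MAP kinase feedback inhibitors 3 of 14 did (Dusp1, Dusp8, Errfi1). A match is a description of the letters, not a site or a cause. The 4 of these genes that rose are shown, with the match in capitals and the nearer match where a gene held 2, read on the strand of the gene, since they are the members of the first wave that share it.
Btg2, matched 166 bases before its start (chr1:134079294-134079341, minus strand): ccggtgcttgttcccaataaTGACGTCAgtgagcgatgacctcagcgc
Maff, matched 29 bases before its start (chr15:79347471-79347518, plus strand): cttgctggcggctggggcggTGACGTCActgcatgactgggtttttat
Dusp1, matched 143 bases before its start (chr17:26508588-26508635, minus strand): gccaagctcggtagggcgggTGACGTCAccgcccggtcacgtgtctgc
Dusp8, matched 63 bases before its start (chr7:142095320-142095367, minus strand): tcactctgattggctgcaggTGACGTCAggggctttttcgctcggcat
Btg2, an antiproliferative gene that p53 also induces, was at 83.1, 164 and 160.5 FPKM in the IRI4h kidneys, against 11.2, 10.3 and 9.26 FPKM in the SHAM4h kidneys, and Dusp8 at 21.2, 37.4 and 20.9 FPKM in the IRI4h kidneys, against 2.78, 1.49 and 1.56 FPKM in the SHAM4h kidneys. Neither gene overlapped between the groups. Errfi1, which holds the same letters and dampens the EGF receptor, was at 51.7, 63.8 and 58.05 FPKM in the IRI4h kidneys, against 54.6, 65.3 and 70.8 FPKM in the SHAM4h kidneys and was not called (log2 change −0.13 ± 0.34, adjusted p = 0.82).

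Inhibitors that shut off MAP kinase signalling rose too. In the list of MAP kinase feedback inhibitors 12 of 16 tested members rose and 1 fell (median 1.51). Dusp5, a nuclear phosphatase of ERK, was at 47.9, 28.3 and 27.6 FPKM in the IRI4h kidneys, against 2.02, 3.34 and 2.099 FPKM in the SHAM4h kidneys (log2 change 3.73 ± 0.41, adjusted p = 5.9e-09), and Dusp14 at 60.2, 81.6 and 53.4 FPKM in the IRI4h kidneys, against 5.89, 6.91 and 6.15 FPKM in the SHAM4h kidneys (log2 change 3.32 ± 0.25, adjusted p = 9e-13). Every injured kidney was far above every sham kidney for both. Dusp8 (3.70), a phosphatase of JNK and p38, and Dusp10 (2.41) rose as well, as did the Sprouty proteins Spry1 (1.24), Spry2 (1.56) and Spry4 (1.81), which block receptor signals to Ras. Dusp1, the phosphatase that acts earliest, was at 136, 205 and 156 FPKM in the IRI4h kidneys, against 43.05, 63.3 and 53.99 FPKM in the SHAM4h kidneys (log2 change 1.63 ± 0.28, adjusted p = 2.4e-05). Dusp7 fell to 11.4, 8.27 and 5.77 FPKM in the IRI4h kidneys, against 13.2, 11.4 and 10.8 FPKM in the SHAM4h kidneys, but its call was lost without IRI4h kidney 3 (−0.28, adjusted p = 0.16).

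Kruppel-like factors, zinc-finger regulators of differentiation, changed in both directions. 7 of 13 rose and 1 fell (median 0.82), beside 17.7% and 10.5% of all genes. Klf6, which is induced in injured proximal tubules, was at 167, 272 and 171 FPKM in the IRI4h kidneys, against 17.7, 12.3 and 16.1 FPKM in the SHAM4h kidneys (log2 change 3.70 ± 0.30, adjusted p = 8.3e-12). Klf4, a factor of epithelial arrest, was at 35.4, 37.4 and 39.6 FPKM in the IRI4h kidneys, against 4.42, 7.38 and 5.99 FPKM in the SHAM4h kidneys (log2 change 2.67 ± 0.32, adjusted p = 3.9e-08). Neither overlapped between groups. Klf15, a regulator of amino acid and lipid use, fell to 34.2, 54.9 and 64.5 FPKM in the IRI4h kidneys, against 78.5, 90.3 and 89.7 FPKM in the SHAM4h kidneys (log2 change −0.80 ± 0.24, adjusted p = 0.011), a call that was lost without IRI4h kidney 1 (−0.53, adjusted p = 0.14). Klf9, a glucocorticoid target, was at 106, 123 and 127 FPKM in the IRI4h kidneys, against 146, 109 and 116 FPKM in the SHAM4h kidneys, with overlapping groups (−0.05, not called).

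Chaperones of the heat shock response, which keep unfolded proteins from clumping, rose in most members. Of 19 tested members, 17 rose and none fell (median 1.95, lowest change 0.51), while Chordc1 (0.79) and Fkbp4 (0.51) were not called. The near-identical genes Hspa1a and Hspa1b were listed at 0 in all 6 libraries and could not be read. Hspb1, the small heat shock protein that guards actin filaments, was at 452, 508 and 374 FPKM in the IRI4h kidneys, against 11, 25.1 and 16.3 FPKM in the SHAM4h kidneys. Dnajb1, the co-chaperone that loads clients onto HSP70, was at 223, 429 and 229 FPKM in the IRI4h kidneys, against 14.3, 21.7 and 19.9 FPKM in the SHAM4h kidneys (log2 change 3.92 ± 0.27, adjusted p = 1e-13). The injured kidneys lay far above the sham kidneys for both, with IRI4h kidney 2 the highest. Hspa8, the constitutive HSP70, was among the most abundant messages, at 1565, 2059 and 1642 FPKM in the IRI4h kidneys, against 390.1, 502 and 447 FPKM in the SHAM4h kidneys (log2 change 1.97 ± 0.22, adjusted p = 1.4e-08). Hsp90ab1, the constitutive HSP90, was at 1311, 1427 and 1030.0 FPKM in the IRI4h kidneys, against 352, 328 and 344 FPKM in the SHAM4h kidneys, and its inducible form Hsp90aa1 at 670.3, 816 and 478 FPKM in the IRI4h kidneys, against 117, 112 and 102 FPKM in the SHAM4h kidneys. Bag3 (3.25), which hands clients to autophagy, Dnajb4 (2.44), the collagen chaperone Serpinh1 (2.25) and the small chaperone Cryab (1.97) rose too. The mitochondrial chaperonins rose less, Hspe1 by 1.24 and Hspd1 by 0.95.

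The heat shock factor binds inverted repeats of GAA. The letters GAANNTTC (N, any base) occurred on either strand in 2088 of the 27025 promoters (7.73%) and in 7 of the 17 chaperone promoters in the table, and TTCNNGAA in 2193 (8.11%) and in 4 of 17. 4 of the 13 chaperone genes that rose and had an entry held the first form. The matches below are shown for the gene with the largest change of the list (the nearer of its 2 matches), for Hspe1, which shares its window with Hspd1 on the other strand, and for the HSP40 co-chaperone Dnaja1.
Hspb1, matched 97 bases before its start (chr5:135887802-135887849, plus strand): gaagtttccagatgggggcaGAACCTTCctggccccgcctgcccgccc
Hspe1, matched 84 bases before its start (chr1:55088044-55088091, plus strand): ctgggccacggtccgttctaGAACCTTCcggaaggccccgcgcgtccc
Dnaja1, matched 124 bases before its start (chr4:40722324-40722371, plus strand): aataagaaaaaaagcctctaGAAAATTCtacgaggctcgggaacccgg
Dnaja1 was at 151, 211 and 153 FPKM in the IRI4h kidneys, against 44.96, 42.8 and 43.2 FPKM in the SHAM4h kidneys, with no overlap. Its change was 1.95 ± 0.27 (SE).

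The integrated stress response, in which the kinases PERK and GCN2 slow translation and raise ATF4, showed a mixed pattern. 10 of 19 tested members rose and 2 fell (median 0.59), beside 17.7% and 10.5% of all genes. Without IRI4h kidney 2 or 3 or SHAM4h kidney 1 or 2, 1 fell. Ddit3, the stress factor CHOP, was at 42.2, 64.6 and 54.4 FPKM in the IRI4h kidneys, against 7.56, 7.54 and 8.595 FPKM in the SHAM4h kidneys (log2 change 2.73 ± 0.27, adjusted p = 5.6e-10). Atf4 itself was at 234, 225 and 193 FPKM in the IRI4h kidneys, against 73.9, 74.5 and 76.4 FPKM in the SHAM4h kidneys (log2 change 1.53 ± 0.15, adjusted p = 9.4e-10). Hspa5, the main chaperone of the endoplasmic reticulum, was at 465, 484 and 482 FPKM in the IRI4h kidneys, against 149, 108 and 142 FPKM in the SHAM4h kidneys (log2 change 1.85 ± 0.25, adjusted p = 4.4e-07). None of these overlapped between groups, whereas Herpud1, a target of the unfolded protein response, had 459.5, 567 and 535 FPKM in the IRI4h kidneys, against 519.6, 477 and 525 FPKM in the SHAM4h kidneys, and was not called (0.03). Of the ATF4 targets of amino acid supply, Asns (0.55) and Phgdh (0.22) were not called, although Asns was without IRI4h kidney 3 (0.86, adjusted p = 0.028). Psat1 fell by 0.72 (adjusted p = 0.011), a call lost without IRI4h kidney 2 (−0.65, adjusted p = 0.051) or SHAM4h kidney 2 (−0.53, adjusted p = 0.11).

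Of 17 tested p53 targets, 8 rose and 3 fell (median 0.34), beside 17.7% and 10.5% of all genes. Plk3, a stress kinase, was at 245, 239 and 192 FPKM in the IRI4h kidneys, against 13.5, 13.7 and 17.96 FPKM in the SHAM4h kidneys (log2 change 3.90 ± 0.40, adjusted p = 1.7e-09). Cdkn1a, the cell cycle inhibitor p21, was at 88.5, 65.5 and 50.7 FPKM in the IRI4h kidneys, against 8.83, 13.1 and 10.4 FPKM in the SHAM4h kidneys (log2 change 2.63 ± 0.52, adjusted p = 0.0002). Gdf15, a secreted stress hormone, was at 93.6, 136 and 97.5 FPKM in the IRI4h kidneys, against 7.09, 16.6 and 9.96 FPKM in the SHAM4h kidneys (log2 change 3.34 ± 0.47, adjusted p = 1.1e-06). The groups stayed apart for all of these, but Sesn2 fell to 30, 31.9 and 25.4 FPKM in the IRI4h kidneys, against 51.2, 43.9 and 46.99 FPKM in the SHAM4h kidneys, a SHAM4h level that was above the means of 19.1 FPKM in SHAM24h and 17.4 FPKM in NORM3m kidneys. The fallen members (Fas, Sesn2, Trp53inp1) numbered 1 without IRI4h kidney 3 and 0 without SHAM4h kidney 1. Mdm2, the p53 antagonist, rose by 0.64 ± 0.13, and Bax (0.07) and Ccng1 (−0.42) were not called.

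Of 20 tested apoptosis regulators 5 were higher and 3 lower, with a median of 0.15, beside 17.7% and 10.5% of all genes. The rises were in the BH3-only killers Pmaip1 (Noxa), at 36.9, 55.7 and 42.2 FPKM in the IRI4h kidneys, against 3.39, 3.77 and 4.01 FPKM in the SHAM4h kidneys (log2 change 3.54 ± 0.21, adjusted p = 3e-15), and Bbc3 (Puma, 1.39), in the TNF receptor family members Tnfrsf12a (2.55) and Tnfrsf10b (1.23), and in Mcl1 (1.20), which protects cells. Of the fallen members Bmf, Fas and Casp8, 1 was left without IRI4h kidney 2, without IRI4h kidney 3 or without SHAM4h kidney 3.

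Genes induced by low oxygen through HIF moved in both directions. Of 20 tested 8 rose and 4 fell (median 0.08), beside 17.7% and 10.5% of all genes. Slc2a1, the glucose carrier GLUT1, was at 43.7, 30.3 and 26.8 FPKM in the IRI4h kidneys, against 11.9, 12.5 and 12.3 FPKM in the SHAM4h kidneys (log2 change 1.42 ± 0.24, adjusted p = 2.2e-05), and Vegfa, the growth factor of vessels, at 69.1, 80.6 and 83.05 FPKM in the IRI4h kidneys, against 40.4, 39.5 and 37.4 FPKM in the SHAM4h kidneys (log2 change 0.98 ± 0.12, adjusted p = 3.8e-08). Hk2, a hexokinase that healthy tubules hardly express, was at 2.55, 1.26 and 1.06 FPKM in the IRI4h kidneys, against 0.0956, 0.107 and 0.303 FPKM in the SHAM4h kidneys (log2 change 2.67 ± 0.48, adjusted p = 5.1e-05), without overlap. Other classic members were not called, among them Pgk1 (−0.11), Ldha (−0.23) and Egln3 (0.02). The 4 falls (Pfkfb4, Bnip3, Pdk1, Car9) were 2 without IRI4h kidney 1, IRI4h kidney 2 or SHAM4h kidney 1 and 1 without SHAM4h kidney 2 or 3.

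Of 14 tested antioxidant genes under NRF2 3 were higher and 2 lower (median −0.05), near the 17.7% and 10.5% of all genes. Osgin1 was at 147, 241 and 188 FPKM in the IRI4h kidneys, against 27.03, 58 and 50.7 FPKM in the SHAM4h kidneys (log2 change 2.13 ± 0.32, adjusted p = 3.4e-06), and Srxn1, which repairs peroxiredoxins, at 156, 133 and 75.7 FPKM in the IRI4h kidneys, against 30.8, 38.6 and 33.6 FPKM in the SHAM4h kidneys (log2 change 1.76 ± 0.24, adjusted p = 6.1e-07). Nqo1, a quinone reductase and the standard NRF2 readout, went the other way, to 21.8, 27.4 and 29.2 FPKM in the IRI4h kidneys, against 54.9, 82.98 and 67.8 FPKM in the SHAM4h kidneys (log2 change −1.38 ± 0.33, adjusted p = 0.0018). All of the IRI4h kidneys were below all of the SHAM4h kidneys. Hmox1, heme oxygenase, was at 181, 244 and 105 FPKM in the IRI4h kidneys, against 78.9, 331 and 60.7 FPKM in the SHAM4h kidneys and was not called (log2 change 0.52 ± 0.39, adjusted p = 0.35), but it was called higher without SHAM4h kidney 2 (1.27, adjusted p = 0.0077). The call of the third riser, Txnrd1, was lost without IRI4h kidney 1 (0.45, adjusted p = 0.12) or SHAM4h kidney 3 (0.53, adjusted p = 0.074).

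Few cytokine genes were expressed, and several of those that rose were near 0 in the sham kidneys. Of 11 tested inflammatory cytokines 5 rose and 1 fell (median 1.19), beside 17.7% and 10.5% of all genes. Il6, the cytokine that drives STAT3 and the acute phase response (chr5:30013114-30019981, plus strand), was at 16.7, 5.98 and 5.06 FPKM in the IRI4h kidneys, against 0, 0.0202 and 0.0751 FPKM in the SHAM4h kidneys (log2 change 5.98 ± 0.54, adjusted p = 7.3e-11). The sham kidneys held at most 0.0751 FPKM, and IRI4h kidney 1 had about 3 times the Il6 of the other injured kidneys. Lif, a cytokine of the same family (chr11:4257557-4272514, plus strand), was at 14.9, 3.302 and 3.34 FPKM in the IRI4h kidneys, against 0.0568, 0.0544 and 0.0707 FPKM in the SHAM4h kidneys (log2 change 5.12 ± 0.60, adjusted p = 2.4e-08), again with IRI4h kidney 1 the highest. Il11, which shares their receptor subunit, was at 2.22, 1.07 and 0.475 FPKM in the IRI4h kidneys, against 0.0724, 0.05200 and 0.0644 FPKM in the SHAM4h kidneys (log2 change 2.84 ± 0.52, adjusted p = 8e-05). Without IRI4h kidney 1 Il6 and Lif stayed called, while Clcf1 did not (0.98, adjusted p = 0.058). Csf1, the growth factor of macrophages, was at 15.3, 5.65 and 4.28 FPKM in the IRI4h kidneys, against 2.35, 1.78 and 2.88 FPKM in the SHAM4h kidneys (log2 change 1.61 ± 0.37, adjusted p = 0.0012), and its change was 1.07 without IRI4h kidney 1. Il1b was at 3.503, 1.89 and 1.88 FPKM in the IRI4h kidneys, against 0.711, 1.01 and 1.13 FPKM in the SHAM4h kidneys and was not called (log2 change 1.23 ± 0.49, adjusted p = 0.059). Il18, an interleukin that epithelial cells make, fell to 1.75, 2.37 and 2.47 FPKM in the IRI4h kidneys, against 3.08, 3.67 and 5.63 FPKM in the SHAM4h kidneys (log2 change −0.85 ± 0.21, adjusted p = 0.0018). Tnf, Il1a, Osm and Csf3 did not reach the level required for testing.

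Downstream of these cytokines are signal transducers and feedback genes. Of 14 tested 5 were higher and 1 lower (median 0.85), beside 17.7% and 10.5% of all genes. The lower one, the feedback gene Socs5 (−0.35), lost its call without IRI4h kidney 2 (−0.35, adjusted p = 0.07), IRI4h kidney 3 (−0.24, adjusted p = 0.2), SHAM4h kidney 2 (−0.27, adjusted p = 0.18) or SHAM4h kidney 3 (−0.33, adjusted p = 0.095). Socs3, which STAT3 induces and which blocks the IL-6 receptor, was at 47.2, 13.9 and 17.9 FPKM in the IRI4h kidneys, against 3.28, 2.66 and 2.41 FPKM in the SHAM4h kidneys (log2 change 3.00 ± 0.52, adjusted p = 3.7e-05). Its sham kidneys were all below 4 FPKM. The kinases Pim1 (1.37) and Pim3 (1.24) and Socs2 (2.06) rose, and Il4ra rose by 0.86, a call lost without IRI4h kidney 1 (0.58, adjusted p = 0.15). Stat3 was at 51.8, 33.03 and 25.4 FPKM in the IRI4h kidneys, against 25.01, 23.9 and 25.96 FPKM in the SHAM4h kidneys and was not called (0.49), nor were Il6st (0.21), Jak2 (0.33) and Osmr (0.83), of which Osmr was called without IRI4h kidney 3 (1.25, adjusted p = 0.034).

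Of 17 tested chemokines, which attract leukocytes, 8 rose and none fell (median 0.94), beside 17.7% and 10.5% of all genes. Cxcl1, a ligand of the neutrophil receptor CXCR2 (chr5:90891241-90893115, plus strand), was at 132, 68.7 and 48.6 FPKM in the IRI4h kidneys, against 2.33, 2.17 and 2.21 FPKM in the SHAM4h kidneys (log2 change 5.03 ± 0.57, adjusted p = 1.4e-08). Cxcl2, its neighbour and fellow ligand (chr5:90903871-90905938, plus strand), was at 13.7, 5.59 and 5.86 FPKM in the IRI4h kidneys, against 0.0653, 0.125 and 0.213 FPKM in the SHAM4h kidneys (log2 change 5.10 ± 0.59, adjusted p = 2.3e-08). Ccl2, which attracts monocytes, was at 14.8, 4.36 and 3.41 FPKM in the IRI4h kidneys, against 0.209, 0.9400 and 0.409 FPKM in the SHAM4h kidneys (log2 change 3.49 ± 0.72, adjusted p = 0.00031). IRI4h kidney 1 was the highest for all 3, and none overlapped with a sham kidney. The neutrophil markers beside them were highest in the same kidney, S100a8 at 50.5, 7.73 and 7.31 FPKM in the IRI4h kidneys, against 2.82, 15.9 and 3.19 FPKM in the SHAM4h kidneys and S100a9 at 52.2, 10.4 and 11.2 FPKM in the IRI4h kidneys, against 2.701, 17 and 4.804 FPKM in the SHAM4h kidneys, neither of them called. Without IRI4h kidney 1, 5 chemokines were called. Cxcl10, which interferon induces, was at 18.03, 13.3 and 20.9 FPKM in the IRI4h kidneys, against 4.65, 2.41 and 18.1 FPKM in the SHAM4h kidneys, so that SHAM4h kidney 3 lay within the injured range, and its call was lost without IRI4h kidney 1 (1.48, adjusted p = 0.074), IRI4h kidney 3 (1.37, adjusted p = 0.086), SHAM4h kidney 1 (1.35, adjusted p = 0.088) or SHAM4h kidney 2 (0.88, adjusted p = 0.27).

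NF-kappa B, the factor that switches on most of these chemokines, induces its own inhibitors, and 11 of 17 tested subunits and inhibitors rose with none lower (median 0.92). Nfkbiz, a nuclear cofactor needed for Il6, was at 20.5, 15.2 and 15.7 FPKM in the IRI4h kidneys, against 1.63, 1.35 and 1.59 FPKM in the SHAM4h kidneys (log2 change 3.40 ± 0.27, adjusted p = 5e-12). Zc3h12a, the RNase regnase-1 that degrades Il6 mRNA, was at 16.2, 9.28 and 12.2 FPKM in the IRI4h kidneys, against 1.71, 1.23 and 1.42 FPKM in the SHAM4h kidneys (log2 change 3.00 ± 0.30, adjusted p = 8.4e-10). The subunit Rela was at 65.4, 50.6 and 47.2 FPKM in the IRI4h kidneys, against 18.4, 15.4 and 17.3 FPKM in the SHAM4h kidneys (log2 change 1.66 ± 0.16, adjusted p = 6.9e-10), and the subunit Nfkb1 was not called (0.33). Without IRI4h kidney 1, 7 members were called, and those lost were Nfkb2 (0.62, adjusted p = 0.12), Relb (0.90, adjusted p = 0.091), Nfkbia (0.60, adjusted p = 0.096) and Tnip1 (0.38, adjusted p = 0.079).

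Letters of the kappa B site and of the AP-1 site stood in some of these promoters. GGANTTTCC (GGAAANTCC on the other strand) was found in 337 of the 27025 promoters (1.25%), in 4 of 12 chemokine promoters (Cxcl1, Cxcl2, Cxcl3, Cxcl10), in 2 of 12 cytokine promoters (Il6, Csf1) and in 4 of 14 promoters of the NF-kappa B list. TGACTCA was found in 1395 (5.16%), in 5 of 12 cytokine promoters, in 5 of 11 promoters of the protease list, in 1 of 12 chemokine promoters and in 1 of 20 immediate early promoters. Not all holders were called higher. Of the AP-1 holders 3 of 5 in the cytokine list and 3 of 5 in the protease list were. Of the kappa B holders 3 of 4 chemokines, 3 of 4 of the NF-kappa B list and 2 of 2 cytokines were. The windows shown belong to the cytokines and chemokines with the largest changes and to Nfkbia, the inhibitor that NF-kappa B induces. The kappa B matches come first, for Nfkbia the nearer of a pair.
Cxcl1, matched 70 bases before its start (chr5:90891155-90891203, plus strand): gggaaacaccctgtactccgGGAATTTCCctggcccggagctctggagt
Cxcl2, matched 96 bases before its start (chr5:90903783-90903831, plus strand): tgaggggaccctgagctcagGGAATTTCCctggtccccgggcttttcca
Il6, matched 43 bases before its start (chr5:30013051-30013099, plus strand): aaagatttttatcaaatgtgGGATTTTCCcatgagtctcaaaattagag
Nfkbia, matched 29 bases before its start (chr12:55492648-55492696, minus strand): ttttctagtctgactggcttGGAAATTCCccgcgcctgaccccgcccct
The AP-1 matches of a cytokine pair and of the protease receptor Plaur and the clotting initiator F3 were these, where TGAGTCA is the same match read on the other strand.
Lif, matched 228 bases before its start (chr11:4257320-4257366, plus strand): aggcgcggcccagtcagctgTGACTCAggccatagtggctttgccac
Il11, matched 98 bases before its start (chr7:4778213-4778259, minus strand): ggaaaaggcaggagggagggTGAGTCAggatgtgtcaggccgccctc
Plaur, matched 69 bases before its start (chr7:24462394-24462440, plus strand): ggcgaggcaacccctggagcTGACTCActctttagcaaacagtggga
F3, matched 135 bases before its start (chr3:121723382-121723428, plus strand): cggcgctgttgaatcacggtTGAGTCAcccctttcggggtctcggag
Fosl1 and Fosb, whose proteins bind such letters with Jun, are described above. The data held no measure of binding.

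Of 14 tested acute phase and complement genes 1 was higher and 1 lower at 4 h, with a median of 0.11, beside 17.7% and 10.5% of all genes. Cd14, the endotoxin co-receptor, was the riser, at 31.4, 14.6 and 13.7 FPKM in the IRI4h kidneys, against 3.51, 5.55 and 5.58 FPKM in the SHAM4h kidneys (log2 change 1.93 ± 0.38, adjusted p = 0.00018). C3 was at 16.02, 1.35 and 1.82 FPKM in the IRI4h kidneys, against 1.58, 1.32 and 4.49 FPKM in the SHAM4h kidneys (0.68, not called), with only IRI4h kidney 1 above all sham kidneys. Saa2, the one called lower, was listed at 0 in all IRI4h kidneys and was at 0.189, 0.397 and 0.302 FPKM in the SHAM4h kidneys, a call lost without any 1 of the IRI4h kidneys or without SHAM4h kidney 2 or 3.

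Among EGF receptor ligands and receptors, 4 of 10 tested rose and 1 fell (median 0.47), beside 17.7% and 10.5% of all genes. Hbegf, a membrane-bound ligand that injured tubules shed, was at 142, 195 and 192 FPKM in the IRI4h kidneys, against 7.88, 9.87 and 8.64 FPKM in the SHAM4h kidneys (log2 change 4.30 ± 0.27, adjusted p = 1.2e-14). Another ligand that rose, Areg, was at 1.71, 0.914 and 0.525 FPKM in the IRI4h kidneys, against 0.0766, 0 and 0.153 FPKM in the SHAM4h kidneys (log2 change 2.67 ± 0.51, adjusted p = 0.00012), and Egf, made by the distal tubule, was at 341, 391 and 350.3 FPKM in the IRI4h kidneys, against 334, 224 and 263 FPKM in the SHAM4h kidneys (0.42, not called). The receptor Egfr was at 17.1, 15.6 and 11.3 FPKM in the IRI4h kidneys, against 10.4, 6.06 and 6.98 FPKM in the SHAM4h kidneys (log2 change 0.92 ± 0.23, adjusted p = 0.0021). Its partner Erbb3 fell by 0.95, a call lost without SHAM4h kidney 1 (−0.77, adjusted p = 0.073).

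Of 18 tested genes of TGF-beta, activin and BMP signalling 9 rose and 1 fell (median 0.84), beside 17.7% and 10.5% of all genes. The rises included Gdf15, given above, the repressors Skil, at 10.9, 15.8 and 14.97 FPKM in the IRI4h kidneys, against 4.26, 6.07 and 4.06 FPKM in the SHAM4h kidneys (log2 change 1.52 ± 0.24, adjusted p = 7e-06), and Tgif1 (1.32), and the inhibitor Smad7 (0.96). The other inhibitor, Smad6, fell by 0.75, a call lost without IRI4h kidney 1 (−0.73, adjusted p = 0.056), IRI4h kidney 2 (−0.72, adjusted p = 0.057), SHAM4h kidney 2 (−0.67, adjusted p = 0.082) or SHAM4h kidney 3 (−0.66, adjusted p = 0.083). Of the ligands, Tgfb1 was at 13.1, 8.63 and 10.7 FPKM in the IRI4h kidneys, against 5.18, 6.25 and 5.77 FPKM in the SHAM4h kidneys (log2 change 0.89 ± 0.24, adjusted p = 0.0048), Tgfb2 rose by 1.24 and Bmp2 by 1.06. Bmp7, which protects tubules, was not called (0.31), nor was Bmp6 (−0.32).

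Proteases, protease inhibitors and matrix proteins rose with none lower, 10 of 15 tested (median 1.73). Adamts1, a secreted protease that cuts proteoglycans, was at 124, 170.1 and 121 FPKM in the IRI4h kidneys, against 12.7, 12.9 and 7.34 FPKM in the SHAM4h kidneys (log2 change 3.67 ± 0.31, adjusted p = 1.4e-11). F3, tissue factor, which starts clotting, was at 100.3, 68.03 and 83.96 FPKM in the IRI4h kidneys, against 17.8, 10.6 and 13.9 FPKM in the SHAM4h kidneys (log2 change 2.58 ± 0.29, adjusted p = 1e-08). Plaur, the urokinase receptor, was at 51.2, 27.7 and 27.4 FPKM in the IRI4h kidneys, against 4.92, 7.91 and 5.76 FPKM in the SHAM4h kidneys (log2 change 2.46 ± 0.38, adjusted p = 5.4e-06). The groups did not overlap for any of these. Thbs1 rose by 2.56 and the matrix protein Tnc by 2.15, while urokinase, Plau, was at 377, 227 and 271 FPKM in the IRI4h kidneys, against 232, 242 and 251 FPKM in the SHAM4h kidneys and not called (0.24).

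Targets of YAP and TEAD, which answer changes in cell shape and adhesion, rose unevenly. Of 12 tested 5 rose and none fell (median 0.34), beside 17.7% and 10.5% of all genes. Cyr61, a secreted matricellular protein, was at 468, 877 and 801 FPKM in the IRI4h kidneys, against 14.3, 20.9 and 11.5 FPKM in the SHAM4h kidneys (log2 change 5.50 ± 0.52, adjusted p = 2.3e-10). It was among the most abundant of the induced genes. Ctgf, its close relative and the usual companion readout, was at 89.97, 82.03 and 47.9 FPKM in the IRI4h kidneys, against 54.5, 82.3 and 48.99 FPKM in the SHAM4h kidneys, with overlapping groups (log2 change 0.23 ± 0.36, adjusted p = 0.69). Ankrd1 was at 4.82, 6.101 and 4.38 FPKM in the IRI4h kidneys, against 0.742, 0.673 and 0.567 FPKM in the SHAM4h kidneys (log2 change 2.77 ± 0.43, adjusted p = 5.7e-06), and Amotl2 rose by 1.33.

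Markers of tubule injury were in part raised by 4 h, 12 of 20 tested with none lower (median 0.98), but 6 of 20 without IRI4h kidney 1 and 7 of 20 against NORM3m kidneys. Krt20, a keratin of the urothelium that injured tubules take up (chr11:99428403-99438150, minus strand), was at 80.2, 30.7 and 7.92 FPKM in the IRI4h kidneys, against 0.107, 0.5701 and 0.413 FPKM in the SHAM4h kidneys (log2 change 6.03 ± 0.85, adjusted p = 9.8e-07). The injured kidneys differed widely from each other, all of them above the sham kidneys. Lcn2, the secreted siderophore binder NGAL, was at 93.5, 12.3 and 5.87 FPKM in the IRI4h kidneys, against 1.32, 4.603 and 3.34 FPKM in the SHAM4h kidneys (log2 change 2.75 ± 0.88, adjusted p = 0.017). Its call was lost without IRI4h kidney 1 (1.60, adjusted p = 0.22) or SHAM4h kidney 1 (2.25, adjusted p = 0.087). Sox9, a factor of tubule repair, was at 4.22, 2.33 and 1.900 FPKM in the IRI4h kidneys, against 0.105, 0.275 and 0.128 FPKM in the SHAM4h kidneys (log2 change 3.41 ± 0.48, adjusted p = 8.9e-07). The simple-epithelium keratin Krt8 was at 634, 413 and 426 FPKM in the IRI4h kidneys, against 91.05, 84.2 and 104 FPKM in the SHAM4h kidneys (log2 change 2.37 ± 0.21, adjusted p = 5.5e-11), and its partner Krt18 rose by 2.07. Havcr1, the injury marker KIM-1, was at 1.53, 0.815 and 0.439 FPKM in the IRI4h kidneys, against 0.576, 1.504 and 0.955 FPKM in the SHAM4h kidneys, with overlapping groups (log2 change −0.17 ± 0.90, adjusted p = 0.91), and Spp1, osteopontin, was at 1404, 688 and 601 FPKM in the IRI4h kidneys, against 422, 604 and 453 FPKM in the SHAM4h kidneys and was not called (log2 change 0.78 ± 0.46, adjusted p = 0.22). Calls of Cd44 (0.61, adjusted p = 0.38), Anxa2 (0.66, adjusted p = 0.11), Krt7 (0.59, adjusted p = 0.10) and Cd24a (0.57, adjusted p = 0.052) were lost without IRI4h kidney 1. The neutrophil marker sum was highest in that kidney too, and its part in these changes was not tested.

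**Figure D3:**
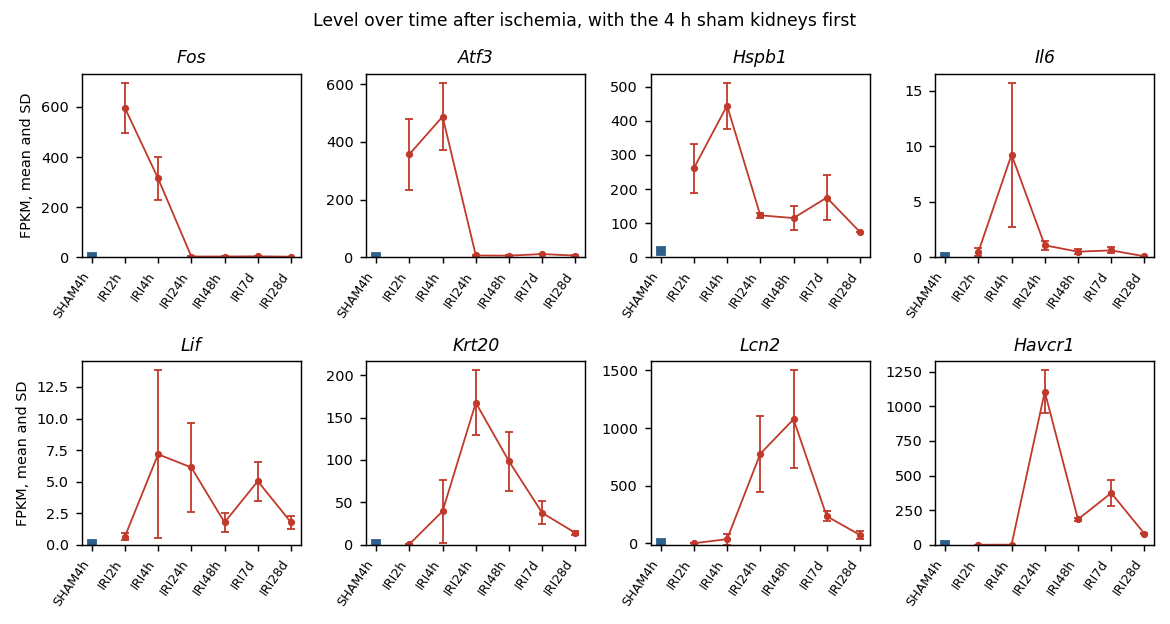
Mean FPKM with SD (y axis, linear) of 8 genes in the SHAM4h kidneys (square) and in injured kidneys from 2 h to 28 days (points joined by a line). Fos had its highest mean at 2 h (596 FPKM), Atf3, Hspb1, Il6 and Lif at 4 h, and Krt20, Lcn2 and Havcr1 later, with Krt20 at a mean of 0.684 FPKM at 2 h.

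The lists of biosynthesis genes are read against the 17.7% of all genes called higher and the 10.5% called lower. Of 18 tested ribosome biogenesis factors 4 rose and 1 fell (median 0.25), led by the snoRNP core protein Nop58, at 6.76, 5.62 and 4.83 FPKM in the IRI4h kidneys, against 2.700, 2.66 and 2.53 FPKM in the SHAM4h kidneys (log2 change 1.08 ± 0.21, adjusted p = 0.00016). Ncl, nucleolin, was at 35.8, 28.6 and 29.8 FPKM in the IRI4h kidneys, against 33.5, 31.4 and 30.9 FPKM in the SHAM4h kidneys (−0.03, not called). Of 17 tested aminoacyl-tRNA synthetases 1 was called higher, Aars (0.37), and none lower (median 0.15), and the count was 0 without IRI4h kidney 1, IRI4h kidney 2 or SHAM4h kidney 2 and 3 without IRI4h kidney 3, while 2 were lower without IRI4h kidney 1. Of 11 tested polyamine genes 2 rose and 1 fell (median 0.21), with Sat1, which acetylates polyamines for export, at 363, 398 and 337 FPKM in the IRI4h kidneys, against 251, 263 and 249 FPKM in the SHAM4h kidneys (log2 change 0.52 ± 0.15, adjusted p = 0.0063). The rate-limiting Odc1 was at 503, 879 and 752 FPKM in the IRI4h kidneys, against 1140.0, 765 and 693 FPKM in the SHAM4h kidneys and was not called, and Azin1, the other riser, lost its call without IRI4h kidney 2 or SHAM4h kidney 3, leaving 1.

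Several of the largest falls were of genes that the SHAM4h kidneys expressed far above other control kidneys. 8430408G22Rik, the FoxO target Depp1 (chr6:116650609-116652794, plus strand), was at 17.5, 11.9 and 11.7 FPKM in the IRI4h kidneys, against 260.3, 169 and 112 FPKM in the SHAM4h kidneys (log2 change −3.65 ± 0.60, adjusted p = 1.2e-05). The IRI4h kidneys were alike and low, but the means were 2.86 FPKM in SHAM24h and 17.02 FPKM in NORM3m kidneys, and against NORM3m the change was 0.38 and no longer a call. G6pc, glucose-6-phosphatase, the last step of glucose release (chr11:101367561-101377903, plus strand), was at 112, 130.1 and 128 FPKM in the IRI4h kidneys, against 843, 1079 and 1027 FPKM in the SHAM4h kidneys (log2 change −2.99 ± 0.21, adjusted p = 1.1e-13). It was the called fall with the smallest p-value of those named here, and the SHAM4h kidneys held several times the 184 FPKM of SHAM24h and the 162 FPKM of NORM3m kidneys. Upp2, a uridine phosphorylase, was at 3.93, 10.2 and 9.67 FPKM in the IRI4h kidneys, against 47.5, 49.3 and 70.5 FPKM in the SHAM4h kidneys (log2 change −2.89 ± 0.35, adjusted p = 4.8e-08), with means of 7.64 FPKM in SHAM24h and 20.4 FPKM in NORM3m kidneys. Cyp2b10, a drug-inducible cytochrome P450, was at 0.577, 0.4702 and 0.369 FPKM in the IRI4h kidneys, against 5.24, 9.798 and 4.87 FPKM in the SHAM4h kidneys (log2 change −3.50 ± 0.66, adjusted p = 9.9e-05), with means of 1.04 and 1.82 FPKM in those same control groups. What sets the SHAM4h level was not tested.

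Other falls did not all have the same footing. Ttpa, the vitamin E transfer protein, was at 4.704, 6.21 and 4.24 FPKM in the IRI4h kidneys, against 17.01, 27.8 and 18.1 FPKM in the SHAM4h kidneys (log2 change −2.01 ± 0.31, adjusted p = 5.9e-06), Omd fell by 2.17, and Gucy1a3, a subunit of the nitric oxide receptor, by 2.05. For each of them all IRI4h kidneys were below all SHAM4h kidneys, which the rule for naming the largest falls required. Of all genes tested, 20.8% lay so. Ccl28 was at 3.92, 7.21 and 12.3 FPKM in the IRI4h kidneys, against 50.4, 31.2 and 22.7 FPKM in the SHAM4h kidneys (log2 change −2.21 ± 0.50, adjusted p = 0.00089), Eif4ebp3, a repressor of translation, fell by 2.14, and Aldh1a7 fell by 2.27. Against NORM3m kidneys Ttpa (−0.62), Omd (−0.55) and Aldh1a7 (−0.58) were not called, and Eif4ebp3 (0.49) changed sign without a call. Ccl28 lost its call against SHAM4h and SHAM24h together (−0.76) but not against NORM3m. For others the size or the call of the fall changed without SHAM4h kidney 3: AW112010 was at 1.83, 1.14 and 1.598 FPKM in the IRI4h kidneys, against 3.19, 3.96 and 44.9 FPKM in the SHAM4h kidneys (log2 change −2.40 ± 0.53, adjusted p = 0.00075) and fell by 1.20 without that kidney. Ly6a, an interferon-induced surface antigen, fell by 0.76 with it and was not called without it (−0.31, adjusted p = 0.19), and Thrsp fell by 1.98 with it and was not called without it (−1.61, adjusted p = 0.081). Of the abundant genes that fell, Spink3, a trypsin inhibitor, was at 987, 782 and 863 FPKM in the IRI4h kidneys, against 1331, 1644 and 1335 FPKM in the SHAM4h kidneys, and Ndufa4, a respiratory chain subunit, at 832, 759.5 and 866 FPKM in the IRI4h kidneys, against 1205, 1499 and 1308 FPKM in the SHAM4h kidneys (log2 change −0.70 ± 0.14, adjusted p = 0.00019). Spink3 lost its call without SHAM4h kidney 2 (−0.61, adjusted p = 0.054). Ftl1, ferritin light chain, was the abundant gene that rose outside the lists, at 3068, 2101 and 2106 FPKM in the IRI4h kidneys, against 1379, 1659 and 1614 FPKM in the SHAM4h kidneys, a call lost without IRI4h kidney 1 (0.44, adjusted p = 0.093).

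**Figure D4:**
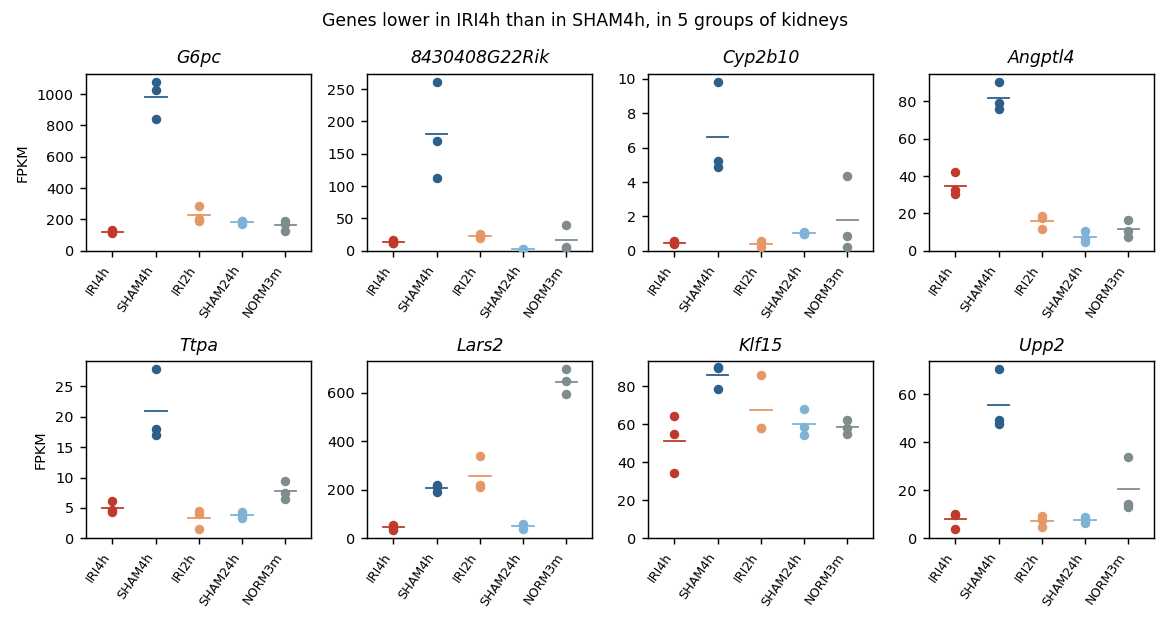
FPKM (y axis, linear) of 8 genes that were lower in the IRI4h than in the SHAM4h kidneys, 1 point per kidney with a line at the mean, in the order IRI4h, SHAM4h, IRI2h, SHAM24h and NORM3m. G6pc lies between 112 and 130.1 FPKM in the IRI4h kidneys and between 843 and 1079 FPKM in the SHAM4h kidneys, while SHAM24h and NORM3m average 184 and 162 FPKM.

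Fatty acid oxidation had the lowest median of the gene function lists (−0.53): of 23 tested members none was higher and 10 were lower (background 10.5% lower). Decr1, which handles unsaturated fatty acids, was at 67.95, 81 and 85.7 FPKM in the IRI4h kidneys, against 97.1, 124 and 119.6 FPKM in the SHAM4h kidneys (log2 change −0.54 ± 0.15, adjusted p = 0.0082), and Cpt2, an inner-membrane carnitine transferase, fell by 0.71, but both calls were lost without IRI4h kidney 1 (Decr1 −0.44, adjusted p = 0.066, and Cpt2 −0.57, adjusted p = 0.071). The groups did not overlap for these genes. Ppara, the nuclear receptor that controls the list, was at 18.7, 19.6 and 17.2 FPKM in the IRI4h kidneys, against 52.7, 39.9 and 36.3 FPKM in the SHAM4h kidneys, apart from the sham kidneys but not called (log2 change −1.19 ± 0.49, adjusted p = 0.065), and the medium-chain enzyme Acadm was not called (−0.16). The count of lower members depended on the kidneys: 2 without IRI4h kidney 1, 6 without IRI4h kidney 2 or 3, 3 without SHAM4h kidney 2, 5 without SHAM4h kidney 3, and 2 against NORM3m kidneys. Angptl4, a lipase inhibitor and target of PPARs, fell by 1.24 against SHAM4h kidneys, a call lost without IRI4h kidney 1 or 3 or SHAM4h kidney 2 or 3 (−1.26 to −1.14), and was 1.66 higher than in NORM3m kidneys.

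Glycolysis and gluconeogenesis genes were nearly level, 1 of 18 tested higher (Hk2), 2 lower and a median of 0.01, beside 17.7% and 10.5% of all genes. Pck1, which commits carbon to glucose, was at 1360.0, 1709 and 1499 FPKM in the IRI4h kidneys, against 2112, 1971 and 2267 FPKM in the SHAM4h kidneys and was not called (log2 change −0.48 ± 0.38, adjusted p = 0.37), and Fbp1 was at 855, 826 and 856 FPKM in the IRI4h kidneys, against 839, 804 and 864 FPKM in the SHAM4h kidneys (0.02).

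Of 31 tested transporters that define the proximal tubule 3 rose, none fell and the median was 0.02, beside 17.7% and 10.5% of all genes. Slc34a1, the main phosphate carrier, was at 2331, 2744 and 2603 FPKM in the IRI4h kidneys, against 1865, 1427 and 1433 FPKM in the SHAM4h kidneys (log2 change 0.71 ± 0.21, adjusted p = 0.0092). All injured kidneys were above all sham kidneys. Slc7a8, an amino acid carrier, was at 74.9, 53.2 and 57.3 FPKM in the IRI4h kidneys, against 37.5, 19.8 and 22.9 FPKM in the SHAM4h kidneys (log2 change 1.24 ± 0.27, adjusted p = 0.00055). Its call was lost against NORM3m kidneys and against SHAM4h and SHAM24h together (0.48 to 0.56). Lrp2, the endocytic receptor megalin, was at 73.2, 110.3 and 73.6 FPKM in the IRI4h kidneys, against 172, 63.2 and 73.9 FPKM in the SHAM4h kidneys, with wide overlap (−0.15), and Slco1a1 was at 57.3, 162 and 145 FPKM in the IRI4h kidneys, against 339.7, 245 and 219 FPKM in the SHAM4h kidneys and was not called (log2 change −1.25 ± 0.67, adjusted p = 0.17). With only the 6 libraries in the fit, 6 of 31 were called higher and 5 lower.

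Of 18 tested genes of the loop and distal tubule 2 were higher and 3 lower (median 0.18), beside 17.7% and 10.5% of all genes. Kcnj1, the potassium channel ROMK, was at 17.3, 22.4 and 29.1 FPKM in the IRI4h kidneys, against 31.6, 53.5 and 43.4 FPKM in the SHAM4h kidneys (log2 change −0.90 ± 0.25, adjusted p = 0.0064), and Bsnd, a subunit of the chloride channels beside it, at 5.89, 7.07 and 11.2 FPKM in the IRI4h kidneys, against 10.5, 15.1 and 17.7 FPKM in the SHAM4h kidneys (log2 change −0.86 ± 0.24, adjusted p = 0.0066). Their calls were lost without IRI4h kidney 1 (Kcnj1 −0.71, adjusted p = 0.063, and Bsnd −0.66, adjusted p = 0.07), that of Kcnj1 also without SHAM4h kidney 2 (−0.72, adjusted p = 0.059) and that of Bsnd without SHAM4h kidney 3 (−0.69, adjusted p = 0.058). The other gene that fell was Trpm6, the magnesium channel, at 2.12, 1.87 and 1.88 FPKM in the IRI4h kidneys, against 3.68, 3.48 and 3.86 FPKM in the SHAM4h kidneys (log2 change −0.88 ± 0.23, adjusted p = 0.0041). Umod, uromodulin, was at 1913, 1528 and 1559 FPKM in the IRI4h kidneys, against 1278, 1318 and 1343 FPKM in the SHAM4h kidneys (0.34, not called). Of the 15 tested collecting duct genes 1 rose and 1 fell (median 0.13): Hsd11b2, which inactivates corticosterone, was at 89.4, 86.5 and 102 FPKM in the IRI4h kidneys, against 44.9, 45.2 and 52.7 FPKM in the SHAM4h kidneys (log2 change 0.96 ± 0.17, adjusted p = 4.4e-05), and Foxi1, the master factor of intercalated cells, at 7.09, 5.21 and 4.45 FPKM in the IRI4h kidneys, against 13.5, 8.798 and 14.9 FPKM in the SHAM4h kidneys (log2 change −1.13 ± 0.21, adjusted p = 7.3e-05). The call of Hsd11b2 was lost against SHAM4h and SHAM24h together (0.12). Aqp2, the water channel, was at 266, 236 and 232 FPKM in the IRI4h kidneys, against 164, 236 and 216 FPKM in the SHAM4h kidneys (0.27, not called).

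Transcription factors of kidney development and identity moved in both directions. Of 25 tested 9 were higher and 7 lower (median 0.05), beside 17.7% and 10.5% of all genes. Without IRI4h kidney 1, 4 were lower. Among those that rose are factors of the developing nephron: Pax8 was at 50.9, 46.5 and 41.1 FPKM in the IRI4h kidneys, against 17.4, 13.01 and 12.9 FPKM in the SHAM4h kidneys (log2 change 1.68 ± 0.15, adjusted p = 4.8e-11), Pax2 rose by 0.92 and Sox4 by 1.33. The Pax8 groups did not overlap. Of those that fell, Hnf4a, the regulator of the mature proximal tubule, was at 151, 165 and 169 FPKM in the IRI4h kidneys, against 255, 231 and 218 FPKM in the SHAM4h kidneys (log2 change −0.54 ± 0.12, adjusted p = 0.00096). Maf was at 13.6, 18.4 and 19.1 FPKM in the IRI4h kidneys, against 41.99, 30.9 and 37.7 FPKM in the SHAM4h kidneys (log2 change −1.11 ± 0.22, adjusted p = 0.00016), and Lhx1, a factor of early nephron formation, fell by 0.69, a call lost without IRI4h kidney 1 (−0.56, adjusted p = 0.078). Hnf4a and Maf were below every sham kidney in every injured kidney. Against NORM3m kidneys the change of Pax2 (−0.11) had the other sign and was not called, and its NORM3m mean was 9.24 FPKM, above the SHAM4h mean of 4.45 FPKM.

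Clock genes are also moved by the time of day. Of 18 tested 8 rose and 2 fell (median 1.06), beside 17.7% and 10.5% of all genes. One of the falls, Tef (−0.55), a PAR bZIP factor, lost its call without IRI4h kidney 1 (−0.41, adjusted p = 0.22), IRI4h kidney 2 (−0.62, adjusted p = 0.052), SHAM4h kidney 1 (−0.38, adjusted p = 0.22) or SHAM4h kidney 3 (−0.58, adjusted p = 0.072). Nr1d1, the repressor REV-ERB alpha, was at 102, 134 and 119 FPKM in the IRI4h kidneys, against 21.8, 10.8 and 13.7 FPKM in the SHAM4h kidneys (log2 change 2.99 ± 0.45, adjusted p = 3.8e-06). Per1, a core repressor that stress signals induce directly, was at 68.4, 87.8 and 99.5 FPKM in the IRI4h kidneys, against 23.1, 14.9 and 16.1 FPKM in the SHAM4h kidneys (log2 change 2.24 ± 0.37, adjusted p = 1.5e-05). Bhlhe40 was at 102, 106 and 127 FPKM in the IRI4h kidneys, against 31.5, 44.9 and 43.3 FPKM in the SHAM4h kidneys (log2 change 1.49 ± 0.21, adjusted p = 9.8e-07), and Cry2 rose by 1.65 and Per2 by 1.46. None of these overlapped between groups. Arntl was at 4.39, 1.92 and 1.56 FPKM in the IRI4h kidneys, against 0.9902, 1.100 and 0.944 FPKM in the SHAM4h kidneys and was not called (log2 change 1.15 ± 0.47, adjusted p = 0.062), nor was Clock (−0.18). The hour of collection is not given in the sources used here.

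Genes that glucocorticoids induce were split, 7 of 13 higher and 1 lower (median 1.01), beside 17.7% and 10.5% of all genes. Without IRI4h kidney 1, 4 were higher, and without SHAM4h kidney 1, 2 were lower. The metallothionein Mt2, which binds zinc, was at 1553, 709 and 505 FPKM in the IRI4h kidneys, against 218, 265 and 185 FPKM in the SHAM4h kidneys (log2 change 1.90 ± 0.45, adjusted p = 0.0015). Mt1 was at 1849, 976 and 709.6 FPKM in the IRI4h kidneys, against 411, 626 and 361 FPKM in the SHAM4h kidneys (log2 change 1.26 ± 0.34, adjusted p = 0.005), with a change of 0.88 and no call without IRI4h kidney 1 (adjusted p = 0.08). Cebpb was at 141, 123 and 114 FPKM in the IRI4h kidneys, against 49, 60.2 and 69.98 FPKM in the SHAM4h kidneys (log2 change 1.08 ± 0.26, adjusted p = 0.0014). Fkbp5, a specific glucocorticoid readout, fell to 24.1, 21.2 and 15.4 FPKM in the IRI4h kidneys, against 47.2, 55.2 and 47.5 FPKM in the SHAM4h kidneys (log2 change −1.32 ± 0.38, adjusted p = 0.0085). The SHAM24h mean was 12.5 FPKM and the NORM3m mean 17.9 FPKM, both close to the injured level, and Tsc22d3, another specific readout, was at 33.3, 47.9 and 32.9 FPKM in the IRI4h kidneys, against 46.1, 67.8 and 70.6 FPKM in the SHAM4h kidneys and was not called (log2 change −0.69 ± 0.30, adjusted p = 0.08).

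Of 20 tested endothelial genes 9 were higher and 1 lower (median 0.25), beside 17.7% and 10.5% of all genes. The higher count was 4 without IRI4h kidney 1 or SHAM4h kidney 2 and 5 without IRI4h kidney 3 or SHAM4h kidney 3. Those counts are nearer the share of all genes. Sele, E-selectin, which slows leukocytes on the vessel wall, was at 5.77, 2.16 and 1.72 FPKM in the IRI4h kidneys, against 0.733, 0.823 and 0.294 FPKM in the SHAM4h kidneys (log2 change 2.10 ± 0.52, adjusted p = 0.002). Cdh5, the junction protein VE-cadherin, was at 23.6, 19.7 and 15.9 FPKM in the IRI4h kidneys, against 10.6, 9.696 and 7.51 FPKM in the SHAM4h kidneys (log2 change 1.08 ± 0.15, adjusted p = 6.7e-07). Sox18, an endothelial transcription factor, was the one that fell, to 3.54, 2.68 and 1.71 FPKM in the IRI4h kidneys, against 10.3, 9.75 and 11.9 FPKM in the SHAM4h kidneys (log2 change −2.02 ± 0.23, adjusted p = 1.8e-08). Pecam1, a general marker of endothelium, was at 25.7, 19.3 and 23.02 FPKM in the IRI4h kidneys, against 22.03, 21.3 and 18.01 FPKM in the SHAM4h kidneys (0.14, not called).

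Of 18 tested cell cycle genes 3 were called higher and none lower (median 0.06), beside 17.7% and 10.5% of all genes, and 1 was called higher without IRI4h kidney 1 or SHAM4h kidney 1. Mcm6, a replication helicase subunit, was at 9.26, 6.83 and 7.28 FPKM in the IRI4h kidneys, against 4.76, 4.02 and 5.16 FPKM in the SHAM4h kidneys (log2 change 0.73 ± 0.17, adjusted p = 0.001). Mki67 was at 0.8301, 0.677 and 0.648 FPKM in the IRI4h kidneys, against 0.522, 0.396 and 0.636 FPKM in the SHAM4h kidneys (0.42) and Top2a at 1.14, 0.636 and 0.905 FPKM in the IRI4h kidneys, against 0.709, 0.806 and 1.27 FPKM in the SHAM4h kidneys (−0.04), both without a call.

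Of 9 tested long noncoding RNAs with known roles 4 rose and none fell (median 0.59), beside 17.7% and 10.5% of all genes. Neat1, the scaffold of paraspeckles, was at 19.9, 12.98 and 13.7 FPKM in the IRI4h kidneys, against 3.47, 2.82 and 2.92 FPKM in the SHAM4h kidneys (log2 change 2.28 ± 0.32, adjusted p = 1.2e-06), although the NORM3m mean was 15.9 FPKM and the change against it −0.04. Malat1, another nuclear RNA, was at 57.1, 78.3 and 74.2 FPKM in the IRI4h kidneys, against 41.5, 14.9 and 17.8 FPKM in the SHAM4h kidneys (log2 change 1.63 ± 0.43, adjusted p = 0.0043). Snhg12, a host of snoRNAs, was at 20.8, 22.2 and 21.5 FPKM in the IRI4h kidneys, against 8.85, 10.6 and 9.099 FPKM in the SHAM4h kidneys (log2 change 1.17 ± 0.19, adjusted p = 9.2e-06), without overlap. The counting was not stated to use strand, so the antisense gene Gm17024, at 8.11, 14.2 and 18.4 FPKM in the IRI4h kidneys, against 0.831, 0.208 and 0.354 FPKM in the SHAM4h kidneys, cannot be told from a gene on the other strand.

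A pair of neighbouring microRNA hairpins was among the noncoding genes with the largest rise. Mir212 was at 5.199, 2.96 and 8.11 FPKM in the IRI4h kidneys and listed at 0 in all 3 SHAM4h kidneys. Mir132 was at 4.21, 6.06 and 4.17 FPKM in the IRI4h kidneys, against 0.685, 0 and 0 FPKM in the SHAM4h kidneys (log2 change 4.61 ± 0.94, adjusted p = 0.00029). The values came from a poly(A) library and hairpins are short, so they count few reads of the primary transcript and do not measure the mature microRNA. The mature strands that both hairpins are known for, from RefSeq (GRCm38.p6), are printed since they share 1 seed (bases 2 to 8, in capitals).
mmu-miR-212-3p (chr11:75173443-75173464, plus strand): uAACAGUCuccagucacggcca
mmu-miR-132-3p (chr11:75173723-75173744, plus strand): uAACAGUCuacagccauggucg
The seed of both is AACAGUC. Arc, a neuronal immediate early gene outside the lists, was at 24.8, 32.6 and 41.04 FPKM in the IRI4h kidneys, against 1.42, 2.19 and 1.12 FPKM in the SHAM4h kidneys (log2 change 4.32 ± 0.45, adjusted p = 2.5e-09), and Gprc5a, a retinoic acid-induced receptor, at 44.8, 24.2 and 21.5 FPKM in the IRI4h kidneys, against 1.97, 1.41 and 1.45 FPKM in the SHAM4h kidneys (log2 change 4.08 ± 0.43, adjusted p = 2.4e-09). Both stood far above the sham kidneys in every injured kidney. The uncharacterized gene 1700109H08Rik rose by 3.92, and 2610035D17Rik fell by 2.62.

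Lars2, a mitochondrial leucyl-tRNA synthetase (chr9:123366927-123462666, plus strand), fell to 35.9, 55.6 and 42.02 FPKM in the IRI4h kidneys, against 192, 212 and 219 FPKM in the SHAM4h kidneys (log2 change −2.24 ± 0.37, adjusted p = 1.6e-05). The groups did not overlap. The IRI2h kidneys held 218, 211 and 338 FPKM and the NORM3m kidneys a mean of 646 FPKM. The SHAM24h mean was 49.5 FPKM, close to the IRI4h kidneys. Gm24187, a short noncoding gene, was at 112, 217 and 103 FPKM in the IRI4h kidneys, against 985, 791 and 909 FPKM in the SHAM4h kidneys and at a mean of 133 FPKM in SHAM24h kidneys. Gm23935 alone took 0.757, 1.34 and 1.01% of the summed FPKM in the IRI4h kidneys, against 4.28, 4.36 and 5.41% in the SHAM4h kidneys. Its mean share was 1.12% in SHAM24h kidneys, close to the IRI4h kidneys, 3.81% in IRI2h and 6.7% in NORM3m kidneys. What sets these levels was not tested.

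The study names 2 sets of genes from these time courses, and since it chose them on these samples they are no independent evidence of a direction. In its kinase signalling set 12 of 12 rose (median 3.21). Gadd45b, a stress sensor, was at 52.1, 44.4 and 57.9 FPKM in the IRI4h kidneys, against 6.59, 5.76 and 8.42 FPKM in the SHAM4h kidneys, and Dusp2, the least changed but one, at 2.84, 3.28 and 3.04 FPKM in the IRI4h kidneys, against 0.453, 0.8003 and 1.902 FPKM in the SHAM4h kidneys. In its set of genes that stay changed from hours to weeks 13 of 15 rose (median 2.37), and Id1 (0.57) and Zbtb16 (−0.53) were not called. Litaf, an endotoxin-induced gene, was at 68.1, 40.2 and 37.3 FPKM in the IRI4h kidneys, against 16.2, 18.4 and 20.96 FPKM in the SHAM4h kidneys (log2 change 1.34 ± 0.29, adjusted p = 0.00053), and Rtn4rl2 rose by 1.24, a call lost without IRI4h kidney 1 (1.03, adjusted p = 0.10).

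**Figure D5:**
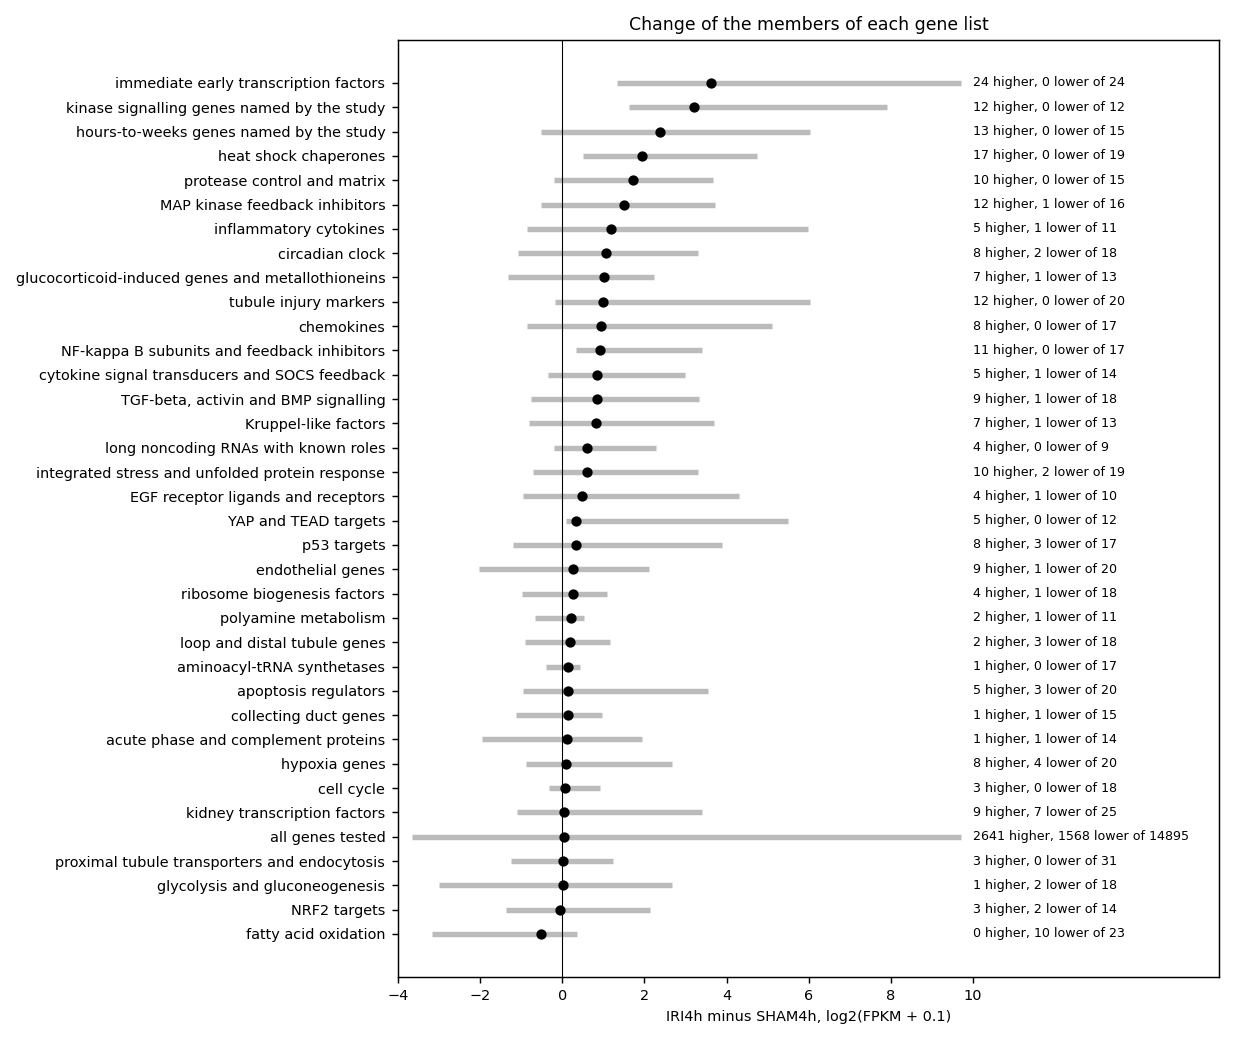
Median (point) and range (bar) of the changes of the tested members of each gene list, IRI4h minus SHAM4h in log2(FPKM + 0.1), with the number of members called. The immediate early list is at the top with a median of 3.61, all genes tested lie at 0.03, and fatty acid oxidation is at the bottom with −0.53.

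The 4 h kidneys were then set directly against the 2 h kidneys, without any sham kidney. The groups were different mice, so the effect of time cannot be told apart from other differences between them. Of the 14895 genes, 2047 (13.7%) were higher and 1577 (10.6%) lower at 4 than at 2 h, counts that were 1031 and 1120 without IRI2h kidney 3 and 1233 and 1030 without IRI4h kidney 1. With only the IRI4h and IRI2h libraries in the fit, 102 were higher and 81 lower. Of the genes that were higher than in SHAM4h kidneys at 4 h, 760 were also higher than at 2 h and 159 lower. Of those that were lower than in SHAM4h kidneys, 333 were also lower than at 2 h and 83 higher. Both comparisons share the IRI4h kidneys, which favours calls in the same direction, so these counts are a description.

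Several genes of the second wave were higher at 4 h. Krt20 was at 80.2, 30.7 and 7.92 FPKM in the IRI4h kidneys, against 0.676, 0.386 and 0.9904 FPKM in the IRI2h kidneys (difference 5.19 ± 0.85, adjusted p = 3.3e-05). Il6 was at 16.7, 5.98 and 5.06 FPKM at 4 h, against 0.445, 0.181 and 0.812 FPKM at 2 h (difference 3.96 ± 0.54, adjusted p = 2.5e-06), and Lif at 14.9, 3.302 and 3.34, against 0.593, 0.411 and 0.945 FPKM (difference 2.96 ± 0.60, adjusted p = 0.00042). For all 3 the groups did not overlap. Lcn2, at 93.5, 12.3 and 5.87 FPKM in the IRI4h kidneys, against 1.64, 1.43 and 1.82 FPKM in the IRI2h kidneys, was higher too (difference 3.47 ± 0.88, adjusted p = 0.0038), but not without IRI4h kidney 1 (2.32, adjusted p = 0.075). Prrg4, a membrane protein with a Gla domain, was at 19.4, 24.9 and 12.1 FPKM at 4 h, against 2.78, 2.22 and 1.799 FPKM at 2 h (difference 2.96 ± 0.41, adjusted p = 3.7e-06), and the SHAM4h kidneys were between, with 7.49, 4.86 and 5.303 FPKM. In the immediate early list only Fosl1 and Maff of 24 were higher than at 2 h and none was lower (median −0.26). Fos was at 221, 389 and 334 FPKM at 4 h, against 711, 550.2 and 527 FPKM at 2 h, and was not called (difference −0.95 ± 0.79, adjusted p = 0.41). Among the chaperones 9 of 19 were higher than at 2 h and none lower (median 0.59), with Hsp90aa1 at 670.3, 816 and 478 FPKM at 4 h, against 157, 228 and 107 FPKM at 2 h (difference 2.03 ± 0.29, adjusted p = 6.5e-06). Of the NF-kappa B list 7 of 17 were higher, of the cytokines 5 of 11, and of the ribosome biogenesis factors 11 of 18. None was lower in any of these. The shares over all genes were 13.7% higher and 10.6% lower than at 2 h.

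Genes lower at 4 than at 2 h included kidney regulators and transport genes. Of the 25 kidney transcription factors 8 were lower than at 2 h and 2 higher (median −0.21), beside 10.6% and 13.7% of all genes. Maf was at 13.6, 18.4 and 19.1 FPKM at 4 h, against 41.1, 37.5 and 18.99 FPKM at 2 h (difference −0.87 ± 0.22, adjusted p = 0.0034), and Hnf4a at 151, 165 and 169, against 236, 226 and 233 FPKM (difference −0.52 ± 0.12, adjusted p = 0.002). Bsnd was at 5.89, 7.07 and 11.2 FPKM at 4 h, against 20.9, 20.5 and 28.1 FPKM at 2 h (difference −1.55 ± 0.24, adjusted p = 1.7e-05). Exoc3l2, an exocyst-related gene, was at 4.46, 4.69 and 6.56 FPKM at 4 h, against 15.1, 13.8 and 18.96 FPKM at 2 h (difference −1.60 ± 0.15, adjusted p = 1.2e-08). For both genes every IRI4h kidney was below every IRI2h kidney. Dusp1 (−0.79) and Klf2 (−0.84), early responders, were lower as well. Lars2 was lower by 2.51 ± 0.37 (adjusted p = 9e-06), but its SHAM24h mean was close to the IRI4h level too, as given above. Of 23 fatty acid oxidation genes 5 were higher at 4 than at 2 h and none lower (median 0.27), beside 13.7% and 10.6% of all genes. Among the 5 was Acadm, at 591, 558 and 692 FPKM at 4 h, against 354, 359.7 and 189 FPKM at 2 h (difference 1.08 ± 0.21, adjusted p = 0.00024).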

How the data were processed

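Whole-kidney RNA was made into poly(A) libraries, sequenced in pairs, aligned by the authors with STAR 2.5.0b to mm10 (GENCODE annotation of GRCm38.p3) and freed of duplicate reads, per the study's methods. The deposited values are FPKM per gene, scaled by the authors to transcript length and library depth. The tool that made them is not given in the sources used here, and the authors ran DESeq2 on counts that were not used here. Because FPKM are not counts, log2(FPKM + 0.1) was tested with limma 3.58.1 (trend and robust options) in R 4.3.3, in 1 fit of all 49 libraries with 16 groups, for genes with 1 FPKM or more in at least 3 libraries, with Benjamini-Hochberg adjustment at 0.05. The fit was tested on simulated data. A pseudocount of 0.1 FPKM understates changes of low genes. In each library at least 97.5% of low values were whole multiples of 1 read (tolerance 0.1 reads) in the IRI4h and SHAM4h groups, which gave the depths.

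Groups came from the labels. Same-numbered kidneys did not deviate together (r = −0.103, 0.086 and 0.039 for IRI4h and SHAM4h), so replicate numbers were not used as a block. Some genes of the lists are counted but not reported here by name. The members and gene lists were chosen with earlier results of these data known. Named genes were the 20 protein-coding genes with the largest rise and the 15 with the largest fall (mean of 5 FPKM or more, groups apart), the 8 with the largest change in mean FPKM in each direction, the 4 noncoding genes in each direction, the 5 leading called members of each list with uncalled members given as such, the 6 in each direction against IRI2h, the genes the study names, and leading markers. Gene families and genes in the closing section were chosen after their values were seen. Alternatives were another pseudocount, filter, fold threshold, quantile normalization, limma without its options, 2 groups alone, a replicate block, other controls, and each kidney left out. Positions are from GENCODE M21, and promoters and microRNAs from RefSeq. Figures used matplotlib 3.10.9.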

Additional observations from a re-analysis of the deposited data

Results flagged for a closer look

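The IRI4h and IRI2h kidneys differed in a direct test of 1 group against the other, in which 2047 genes were higher and 1577 lower at 4 h (limma, Benjamini-Hochberg adjusted p under 0.05). Given here are the 6 genes in each direction picked by the naming rule against IRI2h. Values are IRI4h minus IRI2h on log2(FPKM + 0.1). Krt20 was higher by 5.19, Il6 by 3.96, Lif by 2.96, Fosl1 by 2.95 and Prrg4 by 2.96. Lcn2 was higher by 3.47, which was 2.32 and no longer called without IRI4h kidney 1 (adjusted p = 0.075). On the other side stood Lars2 (−2.51), Exoc3l2 (−1.60), Bsnd (−1.55), Sall2 (−1.59), Fads6 (−1.48) and Slc14a2 (−1.44), a urea transporter. The call of Slc14a2 was lost without IRI2h kidney 2 (−1.40, adjusted p = 0.052), IRI2h kidney 3 (−1.44, adjusted p = 0.07) or IRI4h kidney 2 (−1.20, adjusted p = 0.12). No cause of these differences was tested.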

How the results depend on the processing

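With NORM3m as the control 2486 genes were higher and 2996 lower (45.3% higher, of which 1554 and 932 were also called against SHAM4h), and with SHAM4h and SHAM24h together 1824 and 2219. Quantile normalization gave 1958 and 2364. Leaving out 1 kidney gave 1944 to 2444 higher and 1025 to 1550 lower, the lowest count of falls without SHAM4h kidney 3. Beside 262 higher and 37 lower genes past the thresholds of the study, a 2-fold threshold gave 876 and 254, an 8-fold threshold 109 and 5, a pseudocount of 1 FPKM 110 and 15, and leaving out 1 kidney 223 to 276 and 27 to 48. Between IRI4h and IRI2h, a fit of those 2 groups alone gave 102 higher and 81 lower (1930 and 1855 at an unadjusted p under 0.05), and leaving out 1 kidney 1031 to 2417 higher, the lowest without IRI2h kidney 3, and 1030 to 1521 lower, the lowest without IRI4h kidney 1. With a replicate block in those 2 groups limma called 0 and 0 (1945 and 1400 at an unadjusted p under 0.05, smallest adjusted p = 0.055), and in IRI4h and SHAM4h alone 2088 and 1188, although the numbers do not pair the kidneys. The other pseudocounts, filters and limma options kept each count within 1.5 times.

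These named genes changed sign against NORM3m: 8430408G22Rik (0.38), Eif4ebp3 (0.49), Angptl4 (1.66), Cldn19 (−1.11), Trpm6 (0.22), Cldn16 (−0.03), Fkbp5 (0.30), Mcm6 (−0.01), Neat1 (−0.04), Dusp7 (0.12), Ahsa1 (−0.11), Sesn2 (0.77), Fas (0.03), Trp53inp1 (0.17), Pfkfb4 (0.31), Cd24a (−0.06), Cpt1a (0.10), Hadhb (0.09), Pax2 (−0.11), Nr1h4 (0.39), Tfcp2l1 (0.13) and Krt5 (−0.21). Against SHAM4h and SHAM24h together Angptl4 (0.53), Cldn19 (−0.10) and Nr1h4 (0.01) did. The cause was not tested. Of the named genes, 61 kept their sign but lost their call against NORM3m. The NORM3m libraries were shallower, at 18035426 to 21898933 reads, and 3 kidneys a group limit what small changes can be called.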

Other observations

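Other gene groups, chosen after their values were seen and given without a test of the group, are given beside the shares over all genes tested (17.7% higher, 10.5% lower). Genes of the cytoskeleton and of cell junctions were among them: of 11 tested alpha and beta tubulins 7 rose and none fell (median 0.67, 6 rising without SHAM4h kidney 3) and of 16 claudins, which seal tight junctions, 7 rose and 2 fell (median 0.44, 1 falling without SHAM4h kidney 2). Against NORM3m kidneys 6 claudins were higher and 4 lower (median −0.04), and 8 tubulins were higher and 0 lower (median 1.04). Cldn4 was at 147, 99.8 and 86.9 FPKM in the IRI4h kidneys, against 12.6, 8.88 and 13.0 FPKM in the SHAM4h kidneys (log2 change 3.24), and Epha2, a receptor of cell contact, at 45.2, 39.0 and 37.2 FPKM in the IRI4h kidneys, against 3.37, 3.31 and 3.19 FPKM in the SHAM4h kidneys (3.58). Rnd1 (3.42) and Rnd3 (3.17), which loosen actin fibres, rose too. Of 5 genes of motile cilia that passed the filter 4 rose (median 2.37), among them the master factor Foxj1, at 2.62, 2.65 and 2.07 FPKM in the IRI4h kidneys, against 0.0610, 0.0501 and 0.132 FPKM in the SHAM4h kidneys (3.83). The other cilia genes searched were not among the genes tested. Foxj1, Mlf1 and Ccno were below 1 FPKM in all SHAM4h, SHAM24h and NORM3m kidneys, and the IRI4h kidneys alone sufficed to pass them. The count is thus no evidence of a rise of cilia genes as a group. Ptgs2, the inducible cyclooxygenase, rose by 3.60, the oxysterol enzyme Ch25h by 3.58, Sphk1, which makes sphingosine phosphate, by 2.81, and the growth factor Pdgfa by 2.02.

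Of 44 tested small nucleolar RNA genes 14 rose and none fell (median 1.29), but 8 rose and 1 fell without IRI4h kidney 1, 7 rose without SHAM4h kidney 2 and 9 without SHAM4h kidney 3. Of 104 microRNA hairpins 27 rose and 2 fell (median 0.94), with 19 to 26 rising and 1 falling when 1 kidney was left out. Their summed level was 383, 434 and 417 FPKM in the IRI4h kidneys, against 659, 674 and 708 FPKM in the SHAM4h kidneys. A hairpin such as Mir212 could pass the filter through the IRI4h kidneys alone. As above, hairpin values count few reads of the primary transcript. The hairpin count is thus no evidence of a rise of hairpins as a group. Of 10 SR splicing factors 4 rose (median 0.36), and of 20 hnRNP genes 6 rose (median 0.35). Of 291 zinc finger genes of the Zfp series 49 were higher and 87 lower (median −0.26), and 68 to 84 were lower when 1 kidney was left out. Without SHAM4h kidney 3 their median was −0.29.

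A group of falls went with the level of 1 sham kidney. Of 14 interferon-inducible GTPase genes 8 were called lower (median −1.34), but none was without SHAM4h kidney 3 (median 0.03), none without IRI4h kidney 2 (median −1.21) and 2 without IRI4h kidney 1 (median −1.26). Their summed level was 27.8, 22.3 and 32.4 FPKM in the IRI4h kidneys, against 28.6, 23.0 and 707 FPKM in the SHAM4h kidneys. Iigp1 was at 4.15, 2.35 and 3.20 FPKM in the IRI4h kidneys, against 3.99, 2.37 and 228 FPKM in the SHAM4h kidneys.

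For part of the genes called, the 4 h kidneys were the extreme of the series. IRI4h had the highest mean of the 16 groups for 612 of the 2641 genes called higher (23.2%), against 788 of all 14895 genes tested (5.3%). IRI4h had the lowest mean for 543 of the 1568 genes called lower (34.6%), against 9.9% of all genes tested. The calls against SHAM4h share the IRI4h kidneys with these means, so the shares are a description.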
